A study of Mus musculus with 2 samples.

Results

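Genomic imprinting leaves a gene active on only 1 of its 2 parental copies. Here 10 mouse genes that are expressed from the maternally inherited copy were described: Cdkn1c, Grb10, Phlda2, Igf2r, H13, Asb4, H19, Meg3, Zim1 and Ascl2. They were chosen by name, with earlier results of these data known. Their columns were taken from the spliced and the unspliced count tables, which hold 29453 genes. All 10 were found in both tables. Their levels were followed through the cell lineages of chimeric embryos, in cells derived from Gata1- embryonic stem cells (ESCs) and in the wildtype cells of the host.

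Imprinted genes lie in clusters, and in each cluster a control region carries DNA methylation that was placed in only 1 of the 2 germ lines. For H19 and Meg3 the methylated copy of the control region is the paternal one. Cdkn1c, Phlda2, Ascl2, Grb10, Igf2r, H13, Zim1 and Asb4 lie in clusters whose control regions are methylated on the maternal copy. Many maternally expressed genes restrain growth of the embryo or the placenta, and their loss or gain alters size at birth. The neighbouring paternally expressed genes often act the other way, and several are long RNAs that silence the maternally expressed genes on the copy from which they are transcribed. This split by parental methylation is textbook knowledge, and it was used to order the description below after the values had been seen.

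The tdTom+ cells came from a male ESC line with a constitutive tdTomato marker, derived from a cross of a ROSA26tdTomato male with a C57BL/6 female and grown in 2i + LIF. The injected cells were 1 clone of this line with a frameshift of 38 bp in exon 4 of Gata1, and they were placed into wildtype C57BL/6 blastocysts at E3.5. The tdTom- cells were the wildtype host cells of the same embryos. Cells of 6 chimeras were combined before they were sorted by tdTomato and DAPI, and each fraction gave 1 library, for which the age labels give E8.5 (tdTom+) and E8.6 (tdTom-), while both titles and the methods give E8.5. Genotype, ESC origin and culture, clone and library go together in this design, so that their parts in any difference between the fractions cannot be told apart, while the host library holds cells of both sexes and values against its XY cells are given below. With 1 library per fraction there are no replicates and no test was made. A gene is called lower or higher here where its level differed by at least 2-fold, and the 95% intervals cover counting error only.

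The tables held 8981 tdTom+ and 9252 tdTom- cells, with 167940767 and 157174026 spliced UMIs and medians of 17598 and 15996 spliced UMIs per cell. After doublets had been left out, 8584 and 8722 cells remained, and 18 cell barcodes were found in both libraries. The cells were clustered without imprinted, X-inactivation and Y-linked genes, and 13 groups with markers of a lineage held at least 50 cells of each fraction, between 162 and 643 tdTom+ cells and between 205 and 876 tdTom- cells. They are named here after those markers as allantois-like, brain neuroectoderm-like, cardiomyocyte-like, caudal epiblast and neuromesodermal-like, endothelial-like, extraembryonic mesenchyme-like, gut endoderm-like, neural crest-like, presomitic mesoderm-like, somitic mesoderm-like, spinal cord neuroectoderm-like and surface ectoderm-like. The remaining group, a single cluster, had 3 splanchnic mesoderm markers raised but was led by Hoxd1 and Cdx4, and it is called by these genes. The gut endoderm-like group holds a small cluster led by Calca, Nkx2-9 and Nkx6-1, and its values are also given without these 88 cells. The cardiomyocyte-like group holds a cluster with cardiomyocyte markers raised but led by Lefty2, Dpysl3 and Igfbpl1, which made up 36.7% of its tdTom+ (191) and 27.4% of its tdTom- cells (85), and values without it are given where they differed most. The named blood clusters could not be compared, since the erythroid-like cluster held 2 tdTom+ and 1385 tdTom- cells and the blood progenitor-like cluster 1096 and 2. A cluster led by Fcer1g, Spi1 and Rac2, with 7 blood progenitor markers raised, stayed unnamed and held 515 and 90 cells. Its leading genes held more myeloid markers (Fcer1g, Coro1a and Tyrobp) than blood progenitor markers (Spi1 and Laptm5). Gata1 was at 6.73 CPM (counts per 1000000 spliced UMIs) in the tdTom+ library and at 29.3 CPM in the tdTom- library, whereas its unspliced UMIs numbered 1532 and 413. The tdTomato transcript had 0 UMIs in both libraries and gives no check of the sort. Xist, which marks cells with 2 X chromosomes, had 3.32 CPM in the tdTom+ and 278.4 CPM in the tdTom- library, and the Y-linked gene Ddx3y had 43.7 and 22.1 CPM. At least 3 Xist UMIs were found in 48 tdTom+ cells (0.534%) and in 45.9% of the tdTom- cells. Where these 48 cells came from was not tested, and values without such cells are given below. Any XY host cells in the tdTom+ library would stay among the cells without Xist, since the host also holds XY cells.

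The members lie on 6 chromosomes (GRCm38, GENCODE vM21). On chromosome 7, H19 spans 142575529 to 142578143, Ascl2 142966829 to 142969264, Cdkn1c 143458339 to 143461050 and Phlda2 143501545 to 143503150, all on the minus strand, and Zim1 lies near the other end of the chromosome, from 6671269 to 6696450. Grb10 lies on chromosome 11 from 11930508 to 12038683, Meg3 on chromosome 12 from 109541001 to 109571726, Igf2r on chromosome 17 from 12682406 to 12769664, H13 on chromosome 2 from 152669461 to 152708670 and Asb4 on chromosome 6 from 5383386 to 5433022. A paternally expressed RNA runs against Igf2r: Airn, on the opposite strand, starts inside the gene at 12741311. The paternally expressed Mcts2 lies within H13 on the same strand, so that reads of the shared stretch could be given to either gene, and it had 0 UMIs in both tables. Cdkn1c and Meg3 are also overlapped on the opposite strand, by Gm44732 and Gm26906. The sources used here do not state how strand was treated in counting.

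RefSeq promoter entries (GRCm38.p6) matched 8 of the 10 members, all but Cdkn1c and H19. The 250 bases before the RefSeq start are shown for the members that were lower in most lineages and for Meg3, which was not. CG dinucleotides, at which DNA methylation mostly sits, are set in capitals. These are promoter windows, and whether they overlap the control regions was not examined. The windows are chr11:12037421-12037670 (minus strand) for the first entry of Grb10, chr7:143502525-143502774 (minus) for Phlda2, chr17:12769707-12769956 (minus) for Igf2r, chr2:152669211-152669460 (plus) for H13 and chr12:109540746-109540995 (plus) for the first entry of Meg3. RefSeq starts differ from the GENCODE spans above, so that the windows of Grb10 and Phlda2 lie within those spans.
Grb10: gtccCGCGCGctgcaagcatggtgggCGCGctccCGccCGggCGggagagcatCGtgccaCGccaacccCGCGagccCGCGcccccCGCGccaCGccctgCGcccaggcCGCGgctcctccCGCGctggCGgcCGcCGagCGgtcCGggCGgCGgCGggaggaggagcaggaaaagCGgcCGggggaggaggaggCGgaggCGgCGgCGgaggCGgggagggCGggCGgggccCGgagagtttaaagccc
Phlda2: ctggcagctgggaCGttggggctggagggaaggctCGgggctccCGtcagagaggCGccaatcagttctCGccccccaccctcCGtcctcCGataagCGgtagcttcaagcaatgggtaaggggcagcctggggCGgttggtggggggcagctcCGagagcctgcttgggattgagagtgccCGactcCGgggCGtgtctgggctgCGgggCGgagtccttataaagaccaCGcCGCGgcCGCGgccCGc
Igf2r: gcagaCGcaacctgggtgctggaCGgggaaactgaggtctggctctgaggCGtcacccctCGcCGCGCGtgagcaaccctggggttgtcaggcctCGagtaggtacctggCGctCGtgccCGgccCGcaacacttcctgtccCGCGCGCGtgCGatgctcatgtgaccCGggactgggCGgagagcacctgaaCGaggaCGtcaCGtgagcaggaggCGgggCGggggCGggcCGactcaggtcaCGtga
H13: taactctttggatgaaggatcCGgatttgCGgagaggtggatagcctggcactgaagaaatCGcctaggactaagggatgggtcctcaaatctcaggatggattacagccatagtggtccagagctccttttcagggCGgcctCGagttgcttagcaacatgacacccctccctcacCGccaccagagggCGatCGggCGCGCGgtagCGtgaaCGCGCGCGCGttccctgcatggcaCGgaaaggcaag
Meg3: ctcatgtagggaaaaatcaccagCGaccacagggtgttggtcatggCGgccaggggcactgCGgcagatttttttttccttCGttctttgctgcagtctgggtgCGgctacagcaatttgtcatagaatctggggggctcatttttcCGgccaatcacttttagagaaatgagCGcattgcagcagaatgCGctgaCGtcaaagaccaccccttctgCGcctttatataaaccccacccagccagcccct
The Grb10 window held 40 CG dinucleotides, as many as 1.31% of 32851 promoter entries of this length hold, against a median of 6 over all entries, whereas a second entry of Grb10, not shown, held 8 (43.0%). Igf2r had 27 (8.56% of entries hold as many), Phlda2 21 (16.3%), Ascl2 19 (19.7%), H13 18 (21.7%), Zim1 14 (29.4%) and Meg3 10 (37.8%), with 0 in a second entry of Meg3. The entries of Asb4 held 4 and 8. A CG count describes the window, and methylation was not measured.

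Over all kept cells, 8 of the 10 members were lower in tdTom+ cells and none was higher, where 2.31% of the 13704 genes with at least 100 UMIs were lower and 1.71% were higher. H19 and Meg3 were neither. The members were chosen with earlier results of these data known, so these counts describe them and not maternally expressed genes as a class. The median log2 fold of the members was -2.40 beside -0.01 for all genes. The same held within lineages: of 92 pairs of a member and a lineage with at least 100 UMIs, 69 were lower and 0 were higher. In allantois-like cells 6 of 8 members past the UMI minimum were lower (0.621% of all genes), in endothelial-like cells 6 of 8 (0.411%), in gut endoderm-like cells 6 of 8 (0.781%) and in extraembryonic mesenchyme-like cells 7 of 9 (0.793%). In the cardiomyocyte-like group 5 of 8 were lower (0.717%), in the Hoxd1- and Cdx4-led mesoderm 5 of 7 (0.387%), in somitic mesoderm-like cells 6 of 7 (0.492%) and in spinal cord neuroectoderm-like cells 4 of 7 (0.38%). Of 6 members past the minimum, 5 were lower in caudal epiblast and neuromesodermal-like (0.376%), neural crest-like (0.398%), presomitic mesoderm-like (0.354%) and surface ectoderm-like cells (0.379%), and 4 in brain neuroectoderm-like cells (0.469%).

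For the opposite direction, in which no member was called in any lineage, the share of all genes that were higher was 0.211% in allantois-like, 0.152% in brain neuroectoderm-like, 0.226% in cardiomyocyte-like, 0.201% in caudal epiblast and neuromesodermal-like, 0.149% in endothelial-like and 0.204% in extraembryonic mesenchyme-like cells. It was 0.149% in gut endoderm-like, 0.199% in neural crest-like, 0.225% in the Hoxd1- and Cdx4-led, 0.15% in presomitic mesoderm-like, 0.116% in somitic mesoderm-like, 0.157% in spinal cord neuroectoderm-like and 0.0909% in surface ectoderm-like cells. Only Cdkn1c, Grb10, Phlda2, Igf2r, H13 and H19 passed the UMI minimum in all 13 lineages. Asb4 passed it in 7, Meg3 in 6, Zim1 in 1 and Ascl2 in 0, and for these the values below the minimum are given in the text.

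**Figure D1:**
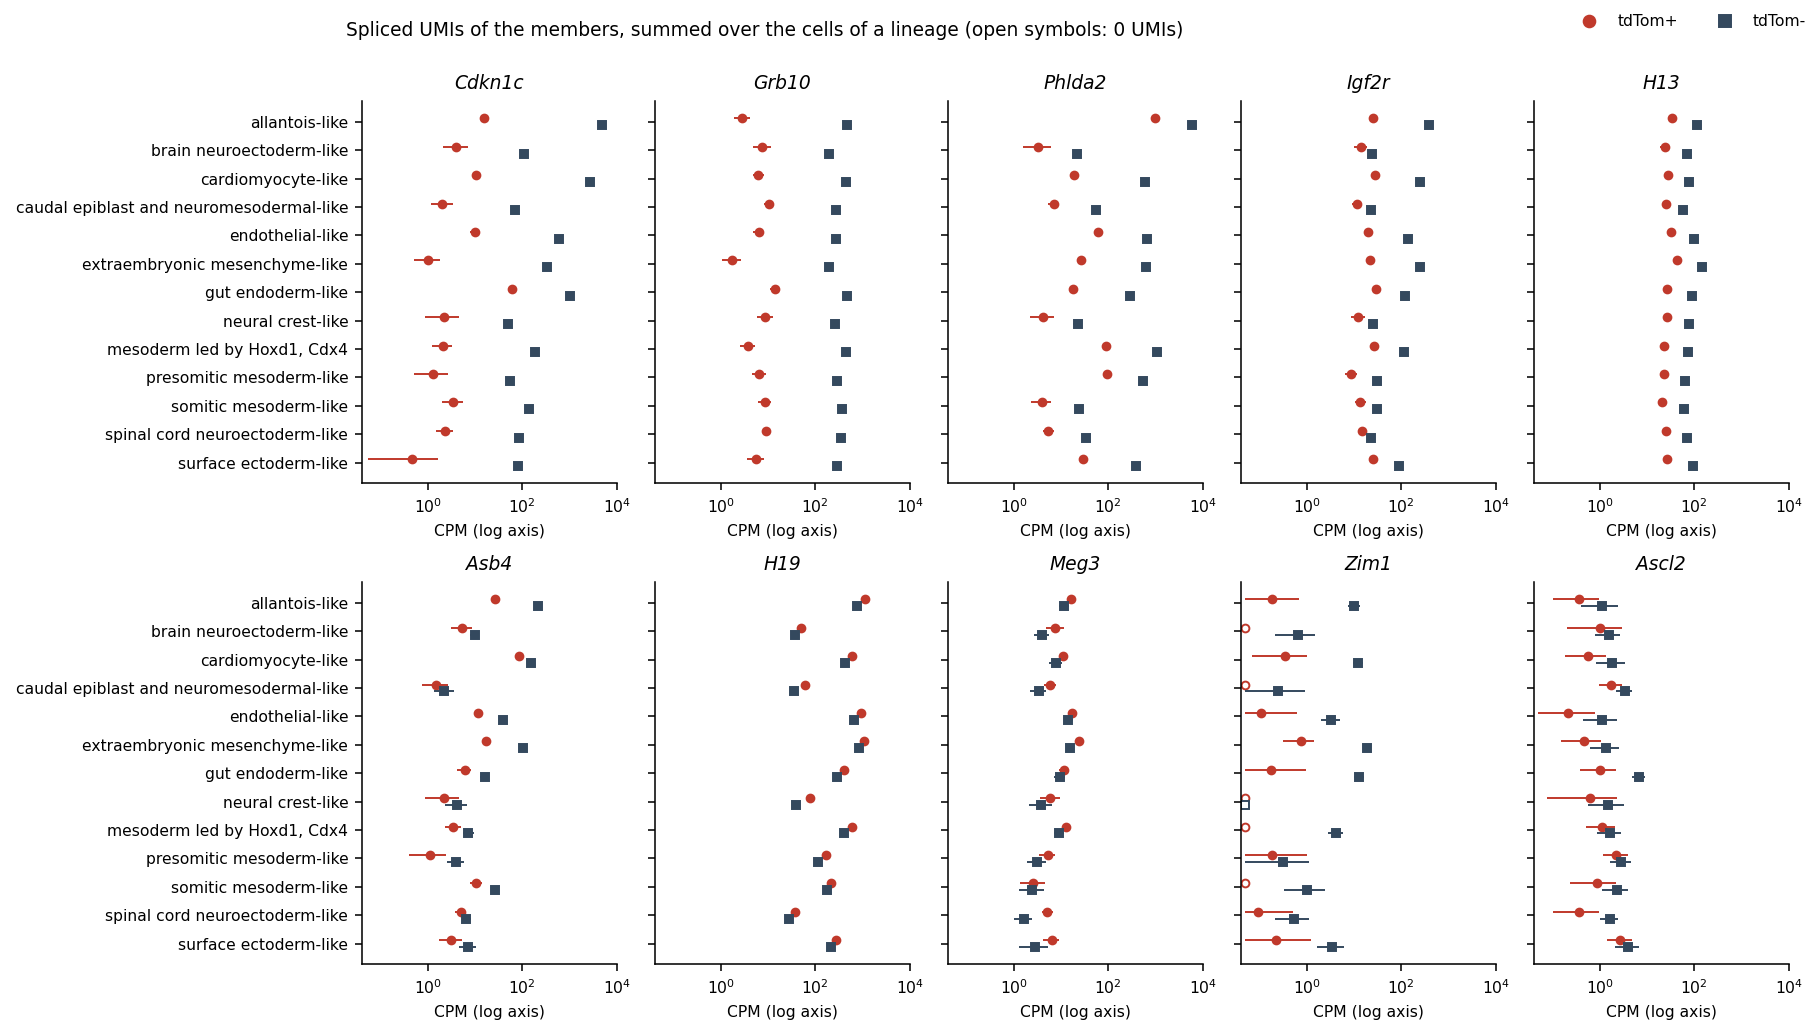
Level of each member in 13 groups of cells, as CPM of spliced UMIs on a log axis, for tdTom+ (red circles) and tdTom- cells (dark squares) with exact Poisson 95% intervals; open symbols stand for 0 UMIs. The red circles of Cdkn1c and Grb10 lie to the left of the squares in all 13 groups, while those of H19 lie to the right.

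Cdkn1c encodes p57Kip2, an inhibitor of cyclin-dependent kinases that takes cells out of the cycle. Host allantois-like cells held 4899 CPM (26612 UMIs) and tdTom+ allantois-like cells 15.4 CPM (167 UMIs). In cardiomyocyte-like cells it was at 2717 CPM in the host and at 10.6 CPM in the tdTom+ fraction. Allantois-like cells had the highest host level but not the highest tdTom+ level, and the latter rested on few cells. In gut endoderm-like cells the host level was 1049 CPM and the tdTom+ level 59.5 CPM, the highest tdTom+ level of the 13 (1069 and 55.8 CPM without the Calca-led cluster). This tdTom+ level rested on few cells: 25 of 390 held any Cdkn1c UMI, and 13 cells with at least 3 Cdkn1c and no Xist UMIs held 88.2% of the 347 UMIs. Endothelial-like cells held 613.8 and 9.87 CPM, extraembryonic mesenchyme-like cells 337.2 and 1.01 CPM and surface ectoderm-like cells 80.8 and 0.450 CPM, the last from 2 tdTom+ UMIs. The lowest host level, 50.01 CPM in neural crest-like cells, stood against 2.201 CPM in tdTom+ cells of the same kind, and only the tdTom+ gut endoderm-like level lay above it. Cdkn1c was lower in 13 of 13 lineages, with a median log2 fold of -5.44. The log2 fold ran from -8.38 (95% interval -9.39 to -7.54) in extraembryonic mesenchyme-like to -4.14 (-4.30 to -3.99) in gut endoderm-like cells.

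Grb10 and Igf2r both act on insulin-like growth factor signalling. Grb10 encodes an adaptor that binds the insulin and IGF1 receptors and dampens their signal, and its host level was even among lineages, from 195.5 CPM in brain neuroectoderm-like to 480.6 CPM in gut endoderm-like cells. In tdTom+ cells it lay between 1.75 CPM in extraembryonic mesenchyme-like and 13.7 CPM in gut endoderm-like cells (9.11 CPM without the Calca-led cluster). In allantois-like cells 2566 host UMIs (472.4 CPM) stood against 31 tdTom+ UMIs (2.86 CPM), and in spinal cord neuroectoderm-like cells 4466 (342.7 CPM) against 98 (8.996 CPM). In cardiomyocyte-like cells its tdTom+ level of 6.27 CPM became 3.004 CPM without the Lefty2-led cluster, and the log2 fold went from -6.17 to -7.20. No tdTom+ level of Grb10 reached any host level among these lineages. Its log2 fold had a median of -5.45, from -7.37 in allantois-like (-7.93 to -6.86) to -4.69 in brain neuroectoderm-like cells (-5.35 to -4.10), and it was lower in 13 of 13 lineages.

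Igf2r encodes the receptor that removes IGF2 from the cell surface and sends it to the lysosome. In the host it was highest in allantois-like cells at 386.3 CPM, followed by cardiomyocyte-like at 254.4, extraembryonic mesenchyme-like at 245.4 and endothelial-like cells at 136.8 CPM, and lowest in spinal cord neuroectoderm-like cells at 22.6 CPM. In tdTom+ cells the 13 levels lay between 8.67 and 29.1 CPM. Those in the lineages with the highest host levels were 25.7, 28.0, 21.3 and 19.3 CPM in the same order. In spliced counts the lineages of the host thus differed far more in Igf2r than the tdTom+ lineages. The log2 fold ran from -3.91 (-4.09 to -3.73) in allantois-like to -0.61 (-0.89 to -0.32) in spinal cord neuroectoderm-like cells. By spliced counts Igf2r was lower in 11 of 13 lineages, the exceptions being spinal cord and, at -0.79 (-1.31 to -0.30), brain neuroectoderm-like cells. With unspliced counts added, its median log2 fold over lineages went from -1.85 to -0.21, and it was then no longer lower.

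Phlda2 and Ascl2 are known for their roles in the placenta. Phlda2, a small pleckstrin homology domain protein that limits placental growth, was at 6075 CPM in host allantois-like cells and at 962.6 CPM in tdTom+ allantois-like cells. It was at 1074 and 90.6 CPM in the Hoxd1- and Cdx4-led mesoderm, at 602.4 and 18.8 CPM in cardiomyocyte-like and at 642.9 and 26.9 CPM in extraembryonic mesenchyme-like cells. Of the tdTom+ UMIs of Phlda2, 76.1% lay in allantois-like cells, against 43.6% of the tdTom- UMIs, where these cells made up 7.14% of the tdTom+ and 3.68% of the tdTom- cells. Phlda2 was lower in 13 of 13 lineages. Its median log2 fold was -2.96, from -5.002 in cardiomyocyte-like to -2.47 in neural crest-like cells, where 13 and 89 UMIs were counted.

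Ascl2, a basic helix-loop-helix factor of trophoblast, had 119 tdTom+ and 767 tdTom- UMIs over all kept cells. Of the latter, 494 (64.4%) came from 75 extraembryonic ectoderm-like host cells, at 261.1 CPM, a cluster that held 1 tdTom+ cell. Most host Ascl2 UMIs thus came from a cell type that the tdTom+ fraction hardly held. The log2 fold over all kept cells was -2.81 (-3.10 to -2.53). Over the 13 lineages together, where this cluster plays no part, 81 and 195 UMIs gave -1.40 (-1.79 to -1.02). Within single lineages Ascl2 never reached 100 UMIs. Its highest host level there was 6.71 CPM in gut endoderm-like cells (43 UMIs), against 1.03 CPM in tdTom+ cells (6 UMIs).

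H13 encodes signal peptide peptidase, which cuts leftover signal peptides in the membrane of the endoplasmic reticulum. Its level was even in both fractions, between 59.1 CPM (caudal epiblast and neuromesodermal-like) and 146.7 CPM (extraembryonic mesenchyme-like) in the host and between 20.6 CPM (somitic mesoderm-like) and 42.5 CPM (extraembryonic mesenchyme-like) in tdTom+ cells. The ranges did not overlap. H13 was lower in 13 of 13 lineages with a narrow spread of log2 folds, from -1.84 in surface ectoderm-like to -1.21 in caudal epiblast and neuromesodermal-like cells, with a median of -1.55.

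Asb4 encodes an ankyrin repeat and SOCS box protein of a ubiquitin ligase. It was highest in a few lineages, at 211.9 CPM in host allantois-like, 150.7 CPM in host cardiomyocyte-like and 102.3 CPM in host extraembryonic mesenchyme-like cells. The tdTom+ levels there were 26.8, 84.4 and 16.8 CPM. In cardiomyocyte-like cells the fractions thus lay closer than in the other lineages named, with a log2 fold of -0.84 (-0.98 to -0.69) beside -2.99 (-3.18 to -2.80) in allantois-like cells, whose intervals do not overlap. Asb4 was lower in 5 of 7 lineages past the minimum, and at -0.40 (-0.92 to 0.11) it was not in spinal cord neuroectoderm-like cells. In the 6 other lineages it had between 1.11 and 5.28 CPM in tdTom+ and between 2.23 and 9.73 CPM in tdTom- cells.

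Zim1, a zinc finger gene of the Peg3 cluster, had 23 tdTom+ and 571 tdTom- UMIs over all kept cells, or 0.149 and 4.01 CPM, with a log2 fold of -4.75 (-5.42 to -4.15). Only extraembryonic mesenchyme-like cells passed the UMI minimum, with 8 UMIs (0.735 CPM) against 125 (19.1 CPM). In gut endoderm-like cells 1 tdTom+ UMI stood against 82 host UMIs, a log2 fold of -6.22 (-11.54 to -3.70), in cardiomyocyte-like cells 3 against 62 (-5.16, -7.48 to -3.55), and in allantois-like cells 2 against 55 (-5.78, -8.86 to -3.86). In the 9 other lineages 0 or 1 tdTom+ UMIs stood against 0 to 32 host UMIs. The host UMIs of Zim1 thus lay mostly in extraembryonic mesenchyme-like, gut endoderm-like, cardiomyocyte-like and allantois-like cells.

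H19 and Meg3 are long noncoding RNAs, and H19 is also the host of a microRNA. In allantois-like cells H19 had 1135 CPM in the tdTom+ and 767.0 CPM in the tdTom- fraction. It was, in the same order, at 1092 and 824.8 CPM in extraembryonic mesenchyme-like, at 949.4 and 667.5 CPM in endothelial-like and at 37.6 and 27.4 CPM in spinal cord neuroectoderm-like cells. These were the 3 highest lineages and the lowest in both fractions. The tdTom+ level was above the tdTom- level in 13 of 13, by a log2 fold between 0.33 (0.20 to 0.46) and 0.97 (0.68 to 1.28) with a median of 0.48. None of these reached 2-fold. Meg3, the maternally expressed RNA of the Dlk1 cluster, was highest in extraembryonic mesenchyme-like cells, with 23.6 CPM in the tdTom+ against 15.9 CPM in the host fraction. Its log2 fold was above 0 in 6 of 6 lineages past the minimum, between 0.26 (-0.12 to 0.65) in endothelial-like and 0.57 (0.24 to 0.92) in extraembryonic mesenchyme-like cells. The interval excluded 0 in the latter and in allantois-like cells (0.45, 0.02 to 0.88). Below the minimum the log2 fold of Meg3 lay between 0.08 (-1.20 to 1.36) in somitic mesoderm-like cells, with 12 UMIs in each fraction, and 1.67 (0.93 to 2.47) in spinal cord neuroectoderm-like cells, with 56 tdTom+ and 21 tdTom- UMIs.

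**Figure D2:**
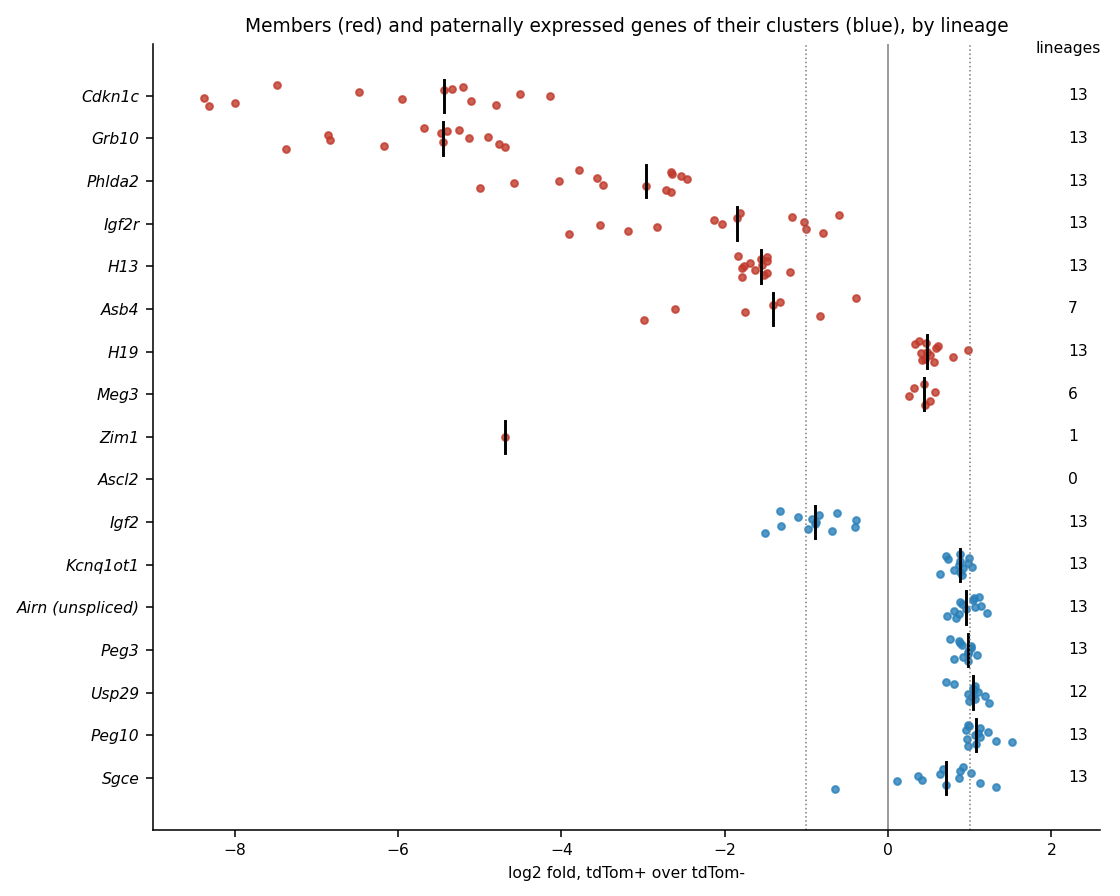
log2 fold of tdTom+ over tdTom- cells for each member (red) and for paternally expressed genes of the same clusters (blue); each point is 1 of 13 groups of cells in which the gene had at least 100 UMIs, their number stands at the right, black bars are medians and dotted lines mark 2-fold. The medians of Cdkn1c and Grb10 lie at -5.44 and -5.45, those of H19 and Meg3 at 0.48 and 0.44.

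The members were also followed outside the lineages above. In 7 unnamed clusters with at least 50 cells of each fraction, Grb10 and H13 were lower in 7 of 7 and Igf2r in 5 of 7. Cdkn1c was lower in 6 of the 6 clusters in which it passed the minimum, Phlda2 in 5 of 5 and Asb4 in 3 of 3, while H19 was above the host level without reaching 2-fold in 7 of 7. Meg3, Zim1 and Ascl2 passed the minimum in 0 of the 7. The share of all genes that were lower, and in brackets higher, was 0.448% (0.102%) in the cluster led by Arg1, 0.469% (0.104%) in that led by Dlx5, 0.467% (0.121%) in that led by Lhx1, 0.428% (0.115%) in that led by En1, 0.501% (0.0864%) in that led by Ebf1 and 0.608% (0.228%) in that led by Tac2. In the cluster led by Fcer1g it was 2.83% (3.6%). There the tdTom+ level of Grb10 was 4.83 CPM beside a host level of 142.6 CPM, the levels of H13 were 37.4 and 81.9 CPM in the same order, and Igf2r, with 8.11 and 16.1 CPM, did not reach 2-fold. This cluster was not the same mix in both fractions. At a higher resolution, 86 of its 90 host cells but 199 of its 515 tdTom+ cells fell into a cluster led by Fcer1g, and 315 of the tdTom+ cells into one led by Spi1 and Myb that held 2 of the host cells. Within the former the levels of Grb10 were 2.098 and 142.7 CPM, and those of H13, at 54.0 and 81.8 CPM, did not differ by 2-fold. In notochord-like cells (46 tdTom+, 39 tdTom-) Grb10 was at 92.9 and 648.6 CPM, and Cdkn1c at 41.3 and 1130 CPM. Of the extraembryonic endoderm-like cells 7 were tdTom+ and 61 tdTom-, and Cdkn1c was at 460.1 and 982.3 CPM, Phlda2 at 604.8 and 1011 CPM and Igf2r at 118.7 and 99.2 CPM. Of these 7 cells, 3 held at least 3 Xist UMIs, and 2 others held at least 3 Cdkn1c UMIs without an Xist UMI. The origin of these cells was not tested, so the tdTom+ levels may not be those of ESC-derived cells.

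Across all genes, 5623 had at least 100 UMIs in every one of the 13 lineages. Of these, 9 were lower in all 13 (0.16%) and 2 were higher in all 13 (0.0356%). The 9 were Xist, Grb10, Cdkn1c, Hba-x, Hbb-y, Phlda2, H13, Hbb-bh1 and Ndufb5 in the order of their median log2 fold, so that 4 of the 6 members with that many UMIs were among them. The globin genes belong to erythroid cells, of which the tdTom- library held 1385 and the tdTom+ library 2. The genes higher in all 13 were Erdr1 and Impact, at medians of 1.55 and 1.40, the latter a paternally expressed imprinted gene. The genes that are not members were named here after their values had been seen.

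The unspliced counts, which come from transcripts that still hold intron sequence, separated the members further. Grb10 had 1044 unspliced tdTom+ and 40052 unspliced tdTom- UMIs, and its unspliced share of all its UMIs was 49.2% (47.1% to 51.4%) in tdTom+ and 49.8% (49.4% to 50.1%) in tdTom- cells. The unspliced counts of Grb10 alone gave a log2 fold of -5.34 (-5.43 to -5.25) over all kept cells and were lower in 13 of 13 lineages, close to the -5.35 of the spliced counts. Cdkn1c had 14 and 815 unspliced UMIs, a log2 fold of -5.94 (-6.82 to -5.18).

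Igf2r went the other way in this layer. Its unspliced UMIs numbered 11856 in tdTom+ and 6438 in tdTom- cells, which gives a log2 fold of 0.80 (0.76 to 0.85), where its spliced UMIs numbered 2744 and 11622. Its unspliced share was 81.2% (80.6% to 81.8%) in tdTom+ and 35.6% (34.9% to 36.4%) in tdTom- cells. In allantois-like cells the shares were 81.1% and 22.8%, and in spinal cord neuroectoderm-like cells 53.8% and 34.4%, the unspliced share of the tdTom+ cells being the larger in all 13 lineages. Airn, whose transcript crosses the first part of Igf2r in antisense, had 131126 unspliced tdTom+ and 50678 unspliced tdTom- UMIs, and its part in the unspliced counts of Igf2r was not tested. H13 had 2636 and 2579 unspliced UMIs, a log2 fold of -0.04 (-0.12 to 0.03), beside -1.41 in the spliced counts. The unspliced shares of H13 were 38.4% (37.2% to 39.5%) and 19.97% (19.3% to 20.7%). The shares of H19 were 9.37% and 9.50%, and those of Asb4 11.1% and 9.91%. Igf2r and H13 were thus lower in spliced counts without being lower in unspliced counts, whereas Grb10 was lower in both. Zim1 had 30 and 308 unspliced UMIs, a log2 fold of -3.44 (-4.03 to -2.89), and unspliced shares of 56.6% (42.3% to 70.2%) and 35.0% (31.9% to 38.3%).

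**Figure D3:**
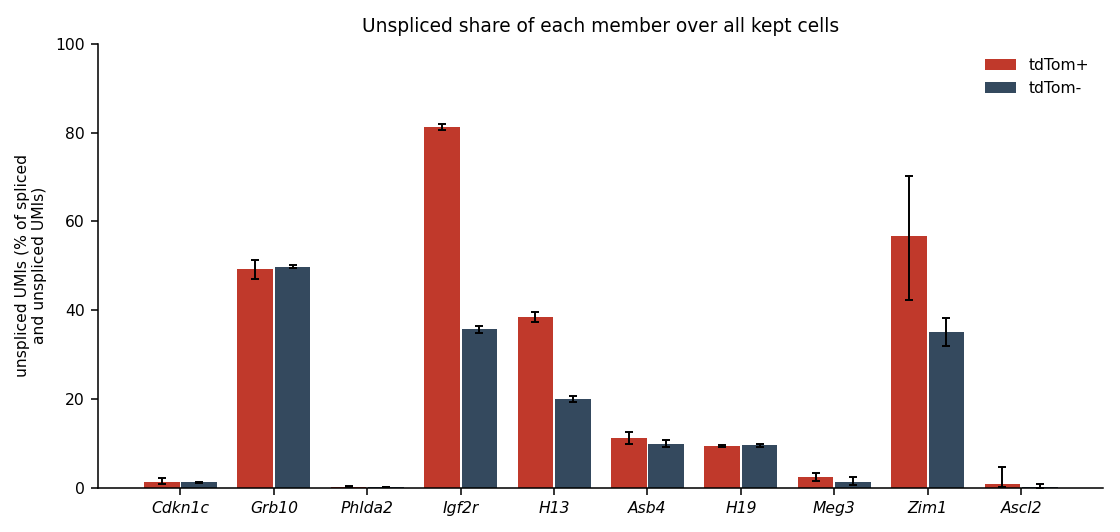
Unspliced UMIs as a percentage of the spliced and unspliced UMIs of each member over all kept cells, in tdTom+ (red) and tdTom- cells (dark); error bars are exact Clopper-Pearson 95% intervals. The bars of Igf2r stand at 81.2% and 35.6%, those of Grb10 at 49.2% and 49.8%.

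For shares of cells with a UMI, each cell was thinned to 5000 spliced UMIs, which left out 151 tdTom+ and 370 tdTom- cells with fewer. Grb10 then had a UMI in 219 of 8433 tdTom+ cells, which is 2.597% (2.27% to 2.96%), and in 5860 of 8352 tdTom- cells, or 70.2% (69.2% to 71.1%), beside 6.36% and 92.6% without thinning. Cdkn1c was found in 1.38% (1.14% to 1.65%) and 41.1% (40.1% to 42.2%), beside 3.20% and 62.4% unthinned. In host allantois-like and cardiomyocyte-like cells Cdkn1c was found in 99.7% and 97.7% of cells, and in tdTom+ cells of these groups in 5.94% and 1.57%. Phlda2 was found in 8.79% and 34.3%, Igf2r in 8.47% and 26.7%, H13 in 12.7% and 29.7%, Asb4 in 4.86% and 9.36%, Zim1 in 0.0949% and 1.94% and Ascl2 in 0.415% and 1.46%, again tdTom+ before tdTom-. For Phlda2 to Ascl2 the unthinned shares were 15.0% and 48.3%, 25.4% and 49.7%, 36.5% and 63.3%, 11.999% and 17.7%, 0.256% and 5.58%, and 1.25% and 3.68%. The order was opposite for H19, in 64.8% and 51.3% of cells, and for Meg3, in 4.58% and 2.53%, beside 85.4% and 74.0% and 12.7% and 7.12% without thinning.

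Free RNA can give single UMIs to cells that do not express a gene, and blood cells, in which Cdkn1c, Phlda2, Asb4 and Meg3 were low, were used as a gauge. After thinning, these genes were found in 0.092%, 1.29%, 0.276% and 0% of 1087 tdTom+ blood progenitor-like cells (median 21484 UMIs). The 0 of 1087 allows, at 3 counts, a share of up to 0.276%. They were found in 5.68%, 5.61%, 0.443% and 0.0738% of 1355 tdTom- erythroid-like cells (median 19083 UMIs). For Cdkn1c the tdTom+ lineages ran from 0 of 255 cells in surface ectoderm-like, which at 3 counts allows up to 1.18%, to 5.94% in allantois-like cells. The exact intervals of 9 of the 13 lineages overlapped that of the blood progenitor-like cells, which reached 0.511%, so that these shares cannot be told apart from this gauge. Those of allantois-like, cardiomyocyte-like, endothelial-like and gut endoderm-like cells lay above it. The gauge is rough. Its cells were deeper than those of the tdTom+ lineages, whose medians ran from 14454.5 to 18514 UMIs before thinning. Overlap of intervals also depends on the number of cells in a group. For Phlda2 the intervals of 6 tdTom+ lineages overlapped the gauge, with 1.16% in brain neuroectoderm-like cells below it, for Asb4 those of 4 and for Meg3 that of 1. In the host the intervals of Cdkn1c overlapped the erythroid-like one in 0 of 13 lineages, with shares from 19.3% to 99.7%, those of Phlda2 and Asb4 in 2 each and those of Meg3 in 4. Grb10 was at 139.3 CPM in host erythroid-like cells, so that blood gives no gauge for it.

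**Figure D4:**
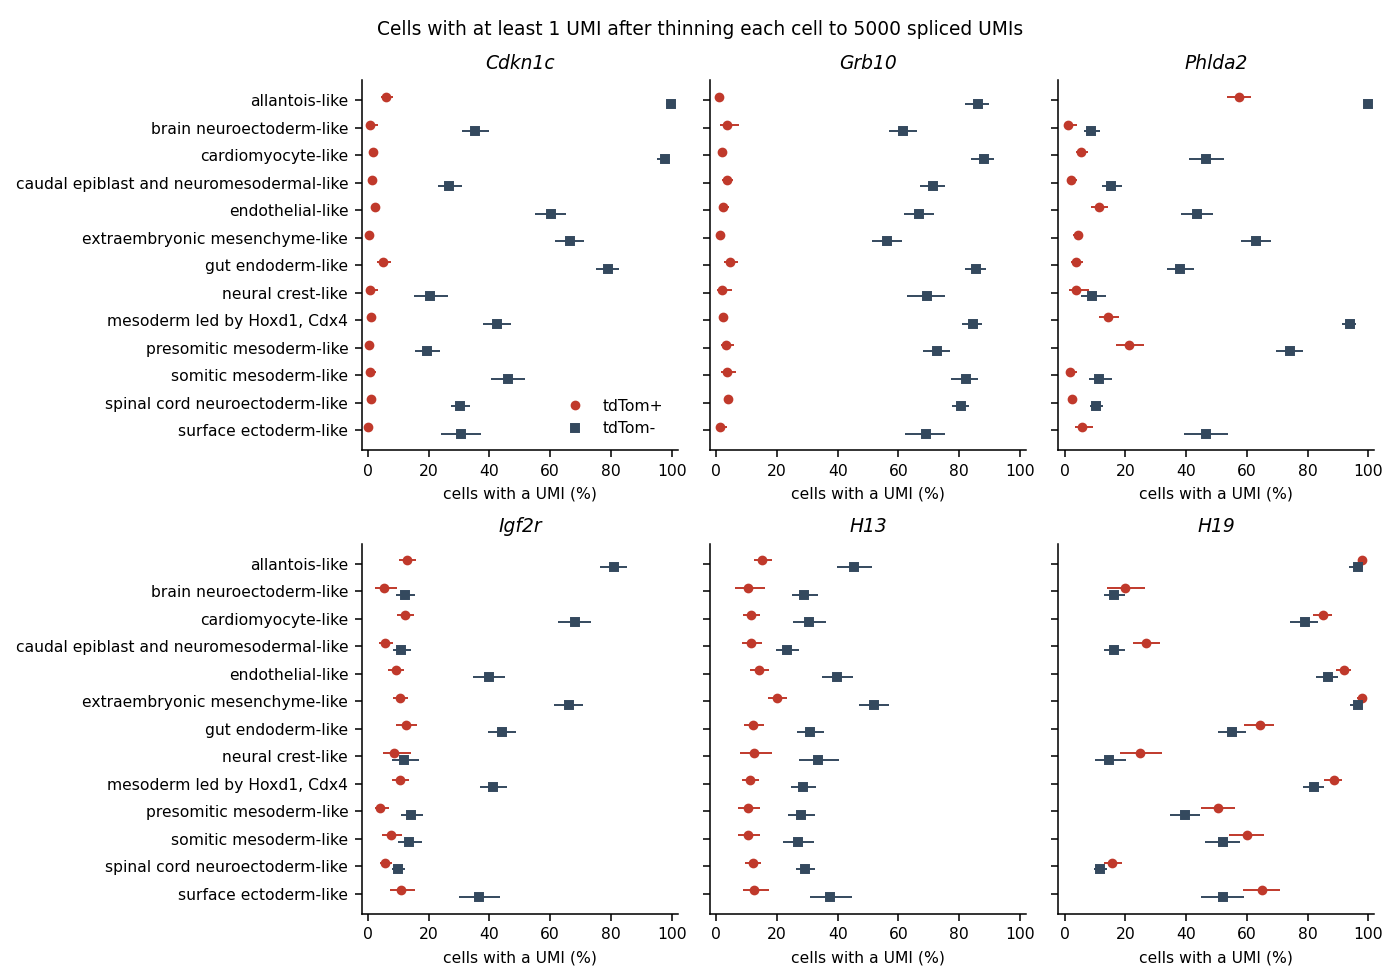
Share of cells with at least 1 UMI of a member in 13 groups of cells after thinning to 5000 spliced UMIs per cell, with exact 95% intervals, for tdTom+ (red circles) and tdTom- cells (dark squares). Grb10 reaches at most 4.47% in a tdTom+ group (gut endoderm-like) and at least 56.3% in a tdTom- group (extraembryonic mesenchyme-like).

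The UMIs that remained in tdTom+ cells were unevenly held. Of the 1031 UMIs of Cdkn1c, 80.9% lay in the top 1% of tdTom+ cells (86 cells), against 22.7% in the top 1% of tdTom- cells, and 33.7% of them lay in gut endoderm-like cells. For Grb10 the top 1% held 44.6% and 4.32%. In 42 kept tdTom+ cells with at least 3 Xist UMIs, Cdkn1c was at 230.7 CPM, Grb10 at 173.3, H13 at 81.3 and Igf2r at 69.3 CPM. In 8511 tdTom+ cells with no Xist UMI these were at 5.43, 5.94, 27.1 and 17.4 CPM. In these 2 sets of cells Asb4 was at 22.7 and 11.2 CPM, beside 28.5 and 27.0 CPM in host cells with Xist and with Y-linked UMIs, and Meg3 at 5.98 and 8.46 CPM. Phlda2 was at 138.7 and 88.5 CPM, beside 502.7 and 585.7 CPM in the host sets, and H19 at 406.5 and 438.9 CPM, beside 255.3 and 258.9 CPM. Zim1 had 0 UMIs and Ascl2 2 UMIs in the 42 cells. Of the 42 cells 8 were spinal cord neuroectoderm-like, 6 endothelial-like, 4 presomitic mesoderm-like, 3 extraembryonic endoderm-like and none allantois-like, so that their mix of lineages differs from those of the other sets, and these levels were not compared within lineages.

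Among the tdTom+ cells without an Xist UMI, 47 had at least 3 UMIs of Cdkn1c, of which 15 were allantois-like and 13 gut endoderm-like. A UMI of Grb10 was found in 59.6% of the 47 (44.3% to 73.6%), in 16.0% of 200 cells with 1 or 2 Cdkn1c UMIs and in 5.35% of 8264 cells with none (4.87% to 5.86%), not thinned, at median depths of 19700, 17292 and 17329 UMIs. Within gut endoderm-like cells the shares were 76.9% of 13 (46.2% to 94.96%) and 4.42% of 362 cells (2.55% to 7.08%), whereas in allantois-like cells they were 6.67% of 15 (0.169% to 31.9%) and 2.67% of 525 (1.47% to 4.43%). The intervals do not overlap in the gut endoderm-like cells and overlap in the allantois-like cells. These classes were cut from a measured value and are ranges, not cell types. Leaving out cells with Xist does not leave out XY host cells, and the origin of the 47 cells was not tested.

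**Figure D5:**
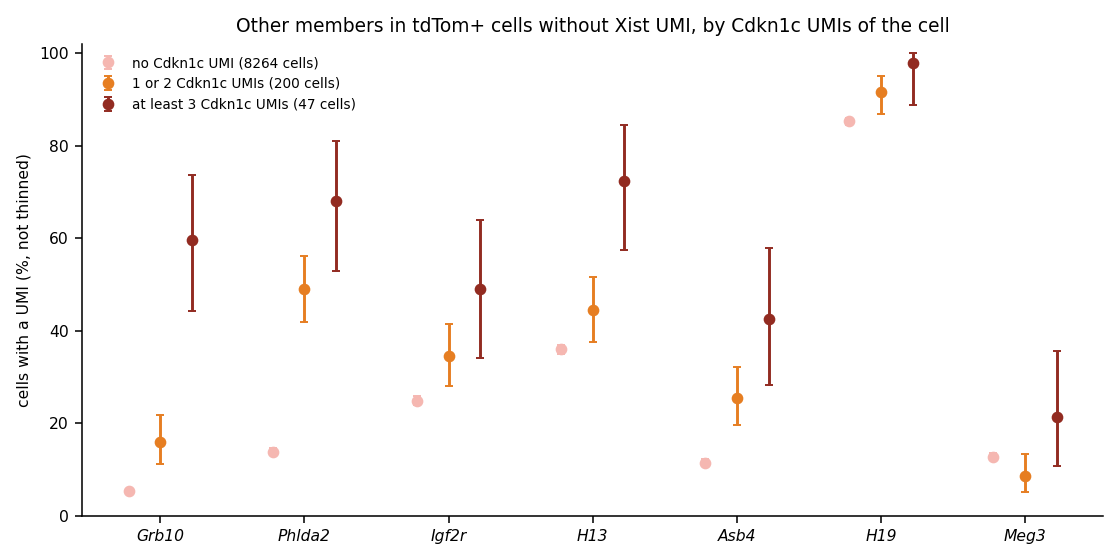
Share of tdTom+ cells without an Xist UMI that held a UMI of another member, by the number of Cdkn1c UMIs in the cell, with exact 95% intervals and without thinning. Grb10 was found in 5.35%, 16.0% and 59.6% of cells with 0, 1 or 2, and at least 3 Cdkn1c UMIs.

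Host cells with Xist and no Y-linked UMI (4055) and with a Y-linked and no Xist UMI (3108) held Grb10 at 288.2 and 280.8 CPM and Cdkn1c at 404.5 and 552.6 CPM. Ascl2 was at 7.44 and 2.86 CPM, but 64 of the former and 2 of the latter cells were extraembryonic ectoderm-like, and without these its levels were 1.76 and 2.28 CPM. The log2 fold of tdTom+ cells without Xist over the host cells with Y-linked UMIs was -6.67 for Cdkn1c, -5.56 for Grb10, -2.73 for Phlda2, -2.28 for Igf2r and -1.46 for H13, and 0.76 for H19.

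The paternally expressed genes of the same clusters were looked at beside the members. Of all genes with at least 100 UMIs, 2.31% were lower and 1.71% were higher over all kept cells. Over all kept cells, 4 of 8 partner genes with at least 100 UMIs were higher in tdTom+ cells and none was lower. The higher ones were Peg10, Usp29, Peg3 and Airn. Peg10, a retrotransposon-derived gene of the Asb4 cluster, was at 195.7 and 74.5 CPM. Usp29 was at 27.2 and 11.5 CPM and Peg3 at 1014 and 442.7 CPM, both beside Zim1. Airn had 144 and 61 spliced UMIs. Within lineages Peg3 was above the host level in 13 of 13, with a median log2 fold of 0.97, Peg10 in 13 of 13 (1.08) and Usp29 in 12 of 12 (1.04). Kcnq1ot1, the antisense RNA of the Cdkn1c and Phlda2 cluster, had a median of 0.88 and lay above the host level in 13 of 13 lineages, with 1 past 2-fold. The unspliced counts of Airn gave a median of 0.95, above 0 in 13 of 13 and past 2-fold in 6. Sgce, next to Peg10, had a median of 0.71 with a range from -0.65 to 1.32 and lay above 0 in 12 of 13. The median folds of these genes were near 2-fold, far smaller in size than those of Cdkn1c and Grb10.

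Igf2, which shares its control region with H19, and Dlk1, the partner of Meg3, lay below the host level. The level of Igf2 was 154.3 CPM in the tdTom+ and 246.6 CPM in the host fraction, and it lay below the host level in all 13 lineages, with a median log2 fold of -0.90 and 4 lineages past 2-fold. Where H19 was above the host level, Igf2 was thus below it. Dlk1 had 150 and 193 UMIs, a log2 fold of -0.48, and in extraembryonic mesenchyme-like cells, the lineage in which it passed the minimum, the log2 fold was -0.97 (-1.48 to -0.46). Rtl1, Zim3 and Mcts2 had 0 spliced UMIs in both fractions.

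Over all kept cells, 2.31% of all genes with at least 100 UMIs were lower and 1.71% were higher. Of 31 other maternally expressed genes in the tables, 23 had at least 100 UMIs, of which 3 were lower and 0 higher over all kept cells, with a median log2 fold of -0.23. The lower genes were Slc22a18, a transporter gene that lies next to Phlda2, with 27 and 278 UMIs, Klf14 with 81 and 267 and Slc22a3, a transporter gene near Igf2r, with 43 and 105. Of 13 genes that set, keep or remove DNA methylation or protect imprints, 1 was lower and 1 higher, with a median of 0.01. Dnmt3l, a cofactor of de novo methylation, was lower (14 and 206 UMIs), Dppa3, which guards methylation in the zygote, was higher (108 and 45), and the methyltransferase gene Dnmt3b was at 91.0 and 82.4 CPM. Dnmt3l, Dppa3, Slc22a18 and Slc22a3 passed the UMI minimum in 0 lineages. Their calls thus rest on all kept cells, in which the fractions differ in their mix of cell types. Within lineages past the minimum, Klf14 was lower in 1 of 1, Ppp1r9a in 3 of 13 and Pon2 in 2 of 10. Copg2 was lower in 2 of 13 and Phactr2 in 1 of 12, while Mirg was higher in 1 of 6. All but Klf14 were named after their values had been seen, and the shares of all genes by lineage are given above. Of 13 genes of IGF signalling none passed 2-fold over all kept cells, the largest differences being those of Igf2, Igfbp2 (-0.40) and Igf1 (0.39). Of 13 Cdk inhibitors and their partners, Cdkn2a was lower (169 and 624 UMIs), and Cdkn2c (0.50) and Ccne2 (0.32) followed without reaching 2-fold. Cdkn1a, which encodes the related inhibitor p21 and was named after its values had been seen, was at 28.6 and 24.4 CPM over all kept cells and was higher by at least 2-fold in 3 of 11 lineages, with log2 folds from -0.64 to 2.49 and a median of 0.55.

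Over 30 groups of lineage and fraction, the genes whose log2(CPM + 10) was most alike to that of each member were sought among 10177 genes. For Grb10 these were Xist (Pearson r of 0.9505), Akr1e1 (0.911) and Ndufb5 (0.903), for Cdkn1c Fxr1 (0.871), DHRSX (0.841) and Pgrmc2 (0.811), and for H13 Pgrmc2 (0.944), Setd3 (0.888) and DHRSX (0.886). For Igf2r they were DHRSX (0.869), Setd3 (0.775) and Capza1 (0.763), for Phlda2 Cenpt (0.824), Atp11b (0.820) and Pink1 (0.787), and for Zim1 DHRSX (0.786), Lamb2 (0.745) and Dusp26 (0.739). Asb4 was most alike to Fbn1 (0.865), Smarcd3 (0.855) and Dact3 (0.835), H19 to Sec22b (0.884), Reep5 (0.874) and Lpgat1 (0.872), Meg3 to B830012L14Rik (0.959), Mirg (0.920) and Manf (0.884), and Ascl2 to Rhox9 (0.988), Vgll1 (0.986) and Gm9 (0.984). The points share 2 libraries, so that any gene that differs between the fractions in all lineages can be alike to a member by this measure. For Ascl2 the measure leans on the host extraembryonic ectoderm-like cells, which held 64.4% of its tdTom- UMIs. In the 13 lineages its host level reached at most 6.71 CPM, below the 10 CPM added.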

How the data were processed

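Droplet-based scRNA-Seq (10X Chromium v3) was carried out on 1 tdTom+ and 1 tdTom- library from 6 pooled chimeric embryos. Per the submitters' processing notes and the methods, the authors ran Cell Ranger 3.0.2 on mm10 (GRCm38), called cells with emptyDrops and filtered them with a mixture model. With velocyto they split the reads, and they deposited raw UMI counts of spliced and unspliced molecules and, per cell, the mitochondrial percent (medians of 2.07% and 2.08%). The methods state that doublets were identified, not whether they were removed before deposit. Metrics were given for 8983 tdTom+ and 9256 tdTom- cells, count rows for 8981 and 9252.

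Counts were analysed with Python 3.11.15, numpy 2.4.6, scipy 1.17.1, pandas 2.3.3, scanpy 1.11.5, leidenalg 0.10.2, igraph 0.11.9 and scikit-learn 1.9.0, and drawn with matplotlib 3.10.9. Scrublet called 377 tdTom+ (4.20%) and 518 tdTom- cells (5.60%) doublets, which were left out, as was a cluster with over 50% of called cells. Clusters came from 2099 variable genes, 50 components, 20 neighbours and a Leiden resolution of 1.5. 814 genes (imprinted, X-inactivation and Y-linked) were left out of the clustering. A name needed at least 3 markers raised 2-fold. It was withheld where another list had more markers among the leading genes, or where a shallow cluster had none of its markers there. Equal numbers were settled by the share of a list raised, a rule chosen after seeing the data, as was calling 1 cluster by its leading genes. For each group and fraction, UMIs were added up and divided by the spliced total (CPM). Exact Poisson, Clopper-Pearson and conditional binomial 95% intervals were given. A gene was called past 2-fold in a group with at least 50 cells of each fraction and at least 100 UMIs. Against 0 counts, folds are bounds with a floor of 3 counts. The fold code was tested on simulated data.

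No test was run and no p-value is given, since cells of 1 library are not replicates. The members and gene lists were chosen with earlier results of these data known. Named were the members, the cluster partners, the 3 genes per list with the largest log2 fold, the 3 genes most alike to each member, and Gata1, Xist and Ddx3y. Genes lower or higher in all 13 lineages, Cdkn1a and the leading genes of clusters were named after their values had been seen. So were other maternally expressed genes past 2-fold in a lineage but not over all kept cells. Alternatives covered layers, denominators, thinning, doublets, XY cells, clustering, the UMI minimum and the fold.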

Additional observations from a re-analysis of the deposited data

How the results depend on the processing

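No paired analysis was possible because there is 1 library per fraction and the labels give no replicate numbers. The number of pairs of a member and a lineage past the minimum changed with the setting. The share over all genes was worked out under the main setting only, so the counts under other settings have none beside them. Of 92 such pairs 69 were lower, which became 61 of 95 with spliced and unspliced UMIs summed, 69 of 92 without globin and mitochondrial genes in the total, 56 of 70 after thinning, 69 of 93 with doublets kept and 60 of 82 in XY cells only. The count was 69 of 92 as a mean over clusters, 68 of 92 with the left-out genes (imprinted, X-inactivation and Y-linked) returned to the clustering and 64 of 84 at a higher resolution (12 lineages). It was 77 of 109 with a minimum of 30 UMIs and 48 of 92 at 4-fold. With unspliced UMIs only 16 of 51 pairs were lower, the members with a median at or below -1 went from 7 of 9 to 3 of 6, and those at or below -1 over all kept cells from 8 of 10 to 5 of 8. In this layer Igf2r reversed, with a median log2 fold of 0.59 and 0.80 over all kept cells. Higher pairs, 0 in the main count, numbered 1 with both layers summed and 1 with the left-out genes returned to the clustering (H19 in neural crest-like cells in both). They numbered 2 with a minimum of 30 UMIs (Meg3 in spinal cord neuroectoderm-like and surface ectoderm-like cells). Under the 10 settings, main included, the median of Cdkn1c lay between -7.61 and -5.28, that of Grb10 between -5.77 and -5.25 and that of H19 between 0.46 and 0.54. The -7.61 of Cdkn1c came from unspliced UMIs only, with 2 lineages past the minimum. The median of Phlda2 lay between -3.68 and -2.72 in the 9 settings that gave a value. The median of Igf2r lay between -2.62 and 0.59, that of H13 between -1.68 and -0.11 and that of Asb4 between -2.54 and -1.28. With both layers summed Igf2r was at -0.21 and no longer lower. The unspliced shares moved past their intervals in 14 of 20 values with lineages weighted equally (Igf2r to 76.5% and 38.8%, Grb10 to 43.5% and 49.0%) and in 3 of 20 in XY host cells, and the number of members with a share at least 1.5 times the host's, and at least 10%, stayed at 3 (Igf2r, H13 and Zim1). All 20 shares of cells moved at a minimum of 2 UMIs (Igf2r to 0.486% and 9.57%, Cdkn1c to 0.379% and 22.7%) and without thinning, with the tdTom+ share the lower in 8 of 10 members throughout. Alternatives added after seeing the data gave 8 lower members over the cells of the 13 compared lineages only, and 69 lower pairs without the Calca-led cluster of the gut endoderm-like group and 69 without the Lefty2-led cluster of the cardiomyocyte-like group. Over the cells of the compared lineages only, 7 of the 10 log2 folds over all kept cells moved past their intervals. The same number moved in XY cells only and as a mean over clusters. Depth limits Zim1, Ascl2 and Meg3, for which single lineages mostly held under 100 UMIs. No difference has a replicate check.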
